A study of Mus musculus with 200 samples.

Results

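Counts of 10 genes that mark developing T cells, Thy1, Il7r, Cd3d, Cd3e, Cd3g, Lck, Cd4, Cd8a, Cd8b1 and Rag1, were followed in single medullary thymic epithelial cells. They were chosen by name from the 38406 genes of the count table, and they were read beside the flow cytometer's CD4 stain of the same wells. The series holds 200 cells of female B6xNOD mice aged 5 weeks. Cells in every group, wild type (WT) included, carried a GFP transgene reporting Aire and had passed a gate for cells negative for CD45 and Ly51 and positive for MHC class II and GFP. They came from Aire WT or Aire knockout (KO) mice and from a high (GFPhi) or low (GFPlo) GFP gate, which gave 61 GFPhi and 39 GFPlo cells of WT and 48 GFPhi and 52 GFPlo cells of KO. The extent of the Aire deletion is not in the labels, and no animal is named. Unless groups are named, a run of 4 values is in the order WT before KO and, within each genotype, GFPhi before GFPlo.

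Medullary thymic epithelial cells present peptides of many tissues to the T cell precursors that surround them, and Aire is a regulator that lets them transcribe genes of other tissues. The precursors, called thymocytes, are far more numerous than the epithelium and carry CD45, the product of Ptprc, which the gate selected against. Thy1 encodes a surface glycoprotein of mouse T cells and some stromal cells, and Il7r the receptor chain for interleukin 7, a survival signal of early lymphoid cells. Cd3d, Cd3e and Cd3g encode the chains that assemble with the T cell receptor and pass on its signal. Lck encodes the kinase that acts first in that signal, bound to the coreceptors encoded by Cd4, Cd8a and Cd8b1. Rag1 encodes 1 subunit of the recombinase that joins antigen receptor gene segments in immature lymphocytes.

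The 3 CD3 genes lie in 1 cluster on chromosome 9, and they were counted at very different levels. Cd3g occupies chr9:44969572-44980431 on the minus strand and Cd3d chr9:44981786-44987339 on the plus strand, with their starts 1355 bases apart and pointing away from each other (mm10, GENCODE release M21). Cd3e occupies chr9:44998740-45009627 on the minus strand. The 250 bases before the RefSeq start of these genes (GRCm38.p6) are printed below to show the neighbouring control regions, together with those of Rag1, which was counted in 1 group. Capitals mark the letters CACCTG (an E-box bound by E proteins), CTTCCT (the core of sites of ETS factors) and TGTGGT (the core of sites of RUNX factors), searched on both strands.
Cd3g, minus strand, chr9:44980432-44980681: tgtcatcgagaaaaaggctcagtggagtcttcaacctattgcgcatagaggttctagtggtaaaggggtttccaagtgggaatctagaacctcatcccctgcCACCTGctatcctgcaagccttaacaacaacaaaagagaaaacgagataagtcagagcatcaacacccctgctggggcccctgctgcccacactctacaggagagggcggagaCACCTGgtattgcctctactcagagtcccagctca
Cd3d, plus strand, chr9:44981536-44981785: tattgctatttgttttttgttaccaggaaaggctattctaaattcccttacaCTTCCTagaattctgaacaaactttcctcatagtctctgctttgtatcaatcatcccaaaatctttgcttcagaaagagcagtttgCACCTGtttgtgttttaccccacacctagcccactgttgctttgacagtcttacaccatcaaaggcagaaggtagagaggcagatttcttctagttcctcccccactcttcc
Cd3e, minus strand, chr9:45009612-45009861: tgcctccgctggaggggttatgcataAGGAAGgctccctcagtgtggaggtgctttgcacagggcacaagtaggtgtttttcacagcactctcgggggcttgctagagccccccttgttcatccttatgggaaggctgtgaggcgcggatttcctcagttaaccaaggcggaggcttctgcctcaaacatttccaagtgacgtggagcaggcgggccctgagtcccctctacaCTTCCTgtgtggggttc
Rag1, minus strand, chr2:101649533-101649782: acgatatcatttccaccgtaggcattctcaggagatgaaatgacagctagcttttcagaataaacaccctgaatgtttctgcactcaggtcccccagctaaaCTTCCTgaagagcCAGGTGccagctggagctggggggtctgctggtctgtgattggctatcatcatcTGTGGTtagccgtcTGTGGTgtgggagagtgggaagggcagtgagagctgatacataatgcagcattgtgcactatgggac

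The E-box letters stood at 2 places before Cd3g, 1 before Cd3d, 1 before Rag1 and 0 before Cd3e. The ETS letters stood at 2 places before Cd3e, 1 before Cd3d, 1 before Rag1 and 0 before Cd3g. The RUNX letters stood at 2 places before Rag1 and at none before the CD3 genes. These letters are common. Of 32851 promoter windows of this length, 17.2% held the E-box letters, 29.5% the ETS letters and 14% the RUNX letters, and 12.4% held TATAAA, which none of these windows had. The matches describe the sequence and were not tied to the counts. Promoters were matched for 7 of the 10 genes, and those of Thy1, Cd4 and Cd8b1 are not shown.

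Group sums of all counts were 3468109, 2260672, 3011900 and 1847240, and totals per cell ran from 2429 to 370365 with a median of 29106.5. The first sort date gave 72 cells and the second 128. Aire transcripts, which cannot show whether the protein is lost, were at 537 counts per 1000000 of the group sum (CPM) and 244 in the WT gates and at 815 and 316 in the KO gates. The epithelial label was checked with Epcam, the surface marker of these cells. It was counted in 162 of 200 cells, with 52 of 61, 32 of 39, 42 of 48 and 36 of 52 by group. Of 20 epithelial list genes 20 had counts in each group except KO GFPhi, where Krt19 was at 0. Counts somewhere in a group are a weak check of its cells, since 13 of 13 genes of a leukocyte list had them in each group too. Ptprc was counted in 14 of 61, 13 of 39, 9 of 48 and 22 of 52 cells although the gate selected against CD45, and 12, 8, 2 and 19 cells had more counts of the lists of leukocyte, B lineage and dendritic genes than of the epithelial list. The latter are called leukocyte-marked cells here, a mark that does not show that a cell is a leukocyte. The leukocyte list holds genes counted in most cells, such as Cd52 in 190 of 200 and Lcp1 in 182. A marked WT GFPlo cell had 13 counts of Epcam, 39 of Aire and 0 of Ptprc. Another marked cell, of KO GFPlo, had 1 count of Epcam, 0 of Aire and 17 of Ptprc. Since each group is 1 sample, no difference was tested, and all intervals are 95% intervals for the counting error of tags only. Within a group sum, fewer cells with a transcript and less transcript per cell cannot be told apart.

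The 10 genes together gave 1212 counts, and 132 of 200 cells had at least 1 of them. Thy1 and Cd3g made up most of that. In counts over all cells Thy1 had 747, Cd3g 174, Il7r 99, Cd4 61, Lck 60, Cd3d 28, Cd8a 18, Rag1 14, Cd3e 6 and Cd8b1 5. Per 1000 bases of the longest transcript Thy1 had 431 counts over all cells, Cd3g 68.5, Il7r 28, Lck 27.5, Cd4 19.6 and Cd3d 17.3. Cd8a had 5.75, Cd8b1 3.37, Cd3e 2.35 and Rag1 2.12 counts on that scale. Transcripts were primed at their tails, per the labels' protocols, and whether these counts grow with transcript length was not tested. The order of the sparse genes depends on it, since Rag1 stands above Cd3e and Cd8b1 in counts and below them per length. Cells with at least 1 count numbered 81 for Cd3g, 54 for Thy1, 22 each for Cd3d and Cd4, 19 for Lck, 17 for Il7r, 8 for Cd8a, 6 for Rag1, 4 for Cd3e and 2 for Cd8b1. In the plot of detection by group, Cd3g is the gene found in most cells of WT GFPlo and KO GFPhi, and Thy1 is found in few WT GFPlo cells.

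**Figure D1:**
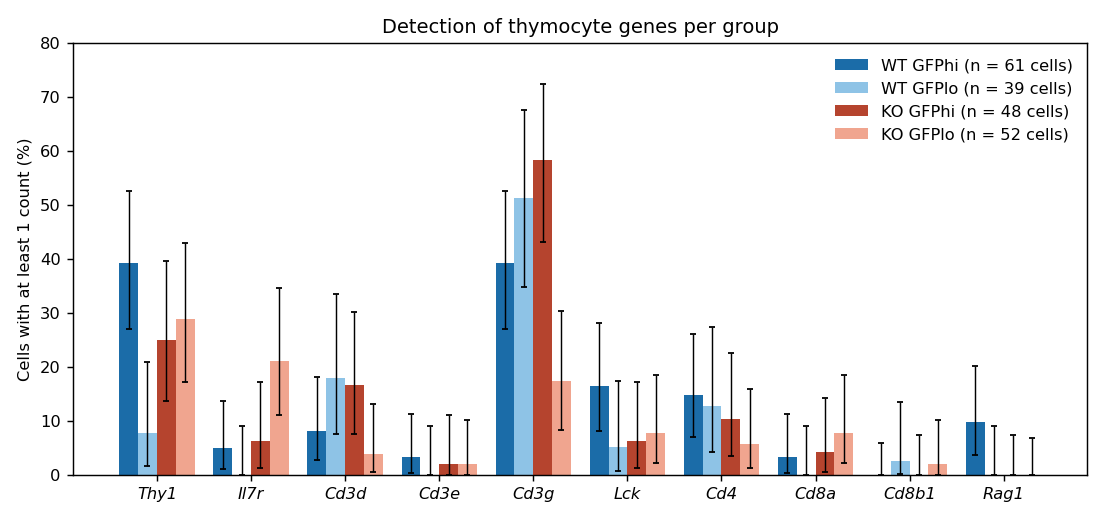
Bars give the percentage of cells with at least 1 count of each gene (x axis) in the 4 groups, and lines give exact binomial 95% intervals. Thy1 was found in 39.3% of WT GFPhi but 7.69% of WT GFPlo cells, Cd3g in 17.3% of KO GFPlo cells against 39.3 to 58.3% in the other groups, and Rag1 in 9.84% of WT GFPhi cells and in 0 cells of the others.

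The summed level of the 10 genes was lowest in WT GFPlo and highest in KO GFPlo cells. It was 134 CPM (122 to 147) in GFPhi and 39.8 (32 to 48.9) in GFPlo cells of WT, and 90.0 (79.6 to 101) in GFPhi and 209 (189 to 231) in GFPlo cells of KO. The share of cells with any of the genes was in another order, with 70.5, 59, 75 and 57.7%. KO GFPlo cells thus had the highest summed level with the lowest share of cells that carried it, at the deposited depth. They also had the lowest median total, with 34324, 26266, 42732 and 23115.5 counts in the 4 groups. Thinned to 10000 counts per cell, with shallower cells left out, the shares were 50.9, 21.9, 29.5 and 54.2%. KO GFPlo cells then had the highest share, so the contrast did not hold at equal depth. Single cells ranged from 0 to 943, 920, 671 and 2026 CPM, with medians of 43.7, 11.9, 44 and 39.6 CPM, so the groups overlapped cell by cell.

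Knockout against wild type was read first in GFPhi cells, the gate with most Aire. The summed level in KO was 0.671 times (0.576 to 0.781) that in WT cells. By date the ratio was 0.391 on the first and 0.953 on the second, and without pool 5, which holds the WT cell with most Thy1, the log2 ratio was -0.02 instead of -0.57. Of the 10 genes 7 had at least 10 counts over both groups. A gene is called different here where its level differed at least 2-fold with the whole interval on one side of 1. On that rule 1 gene was higher in KO (Il7r), where 19.1% of the 15033 genes with as many counts were, and 3 were lower (Lck, Cd4 and Rag1), where 27.8% of all were. In GFPlo cells the summed level in KO was 5.25 times (4.16 to 6.68) that in WT, with 3.21 and 7.74 times by date. There 4 of 7 genes were higher in KO (Thy1, Il7r, Lck and Cd8a), against 22.2% of 13882 genes, and 1 was lower (Cd3g), against 26.3%. The log2 ratio of the sum was 0.91 without Thy1 and 1.55 without leukocyte-marked cells, instead of 2.39.

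The 2 gates differed in opposite directions by genotype. In WT cells the summed level in GFPhi was 3.37 times (2.68 to 4.27) that in GFPlo, with 4.11 and 3.21 times by date. Of 6 genes with enough counts 4 were higher in GFPhi (Thy1, Lck, Cd4 and Rag1), against 25.9% of 15064 genes, and 1 was lower (Cd3g), against 23.3%. In KO cells the summed level in GFPhi was 0.431 times (0.367 to 0.504) that in GFPlo, with 0.501 and 0.395 times by date. Of 7 genes 0 were higher in GFPhi, against 22.6% of 13898 genes, and 4 were lower (Thy1, Il7r, Lck and Cd8a), against 24.8%. Without Thy1 the log2 ratio of the sum in WT was 0.14 instead of 1.75, and without leukocyte-marked cells that in KO was -0.62 instead of -1.21. WT GFPlo cells enter 2 of the 4 comparisons and so do the other groups, so a value of 1 group moves both of its comparisons.

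Thy1, the surface glycoprotein (chr9:44043384-44048579, plus strand), carried 747 of the 1212 counts, and it was nearly missing from WT GFPlo cells. It had 318 counts in 24 of 61 WT GFPhi cells, 3 counts in 3 of 39 WT GFPlo cells, 174 counts in 12 of 48 KO GFPhi cells and 252 counts in 15 of 52 KO GFPlo cells. The levels of the sums were 91.7 CPM (81.9 to 102), 1.33 (0.274 to 3.88), 57.8 (49.5 to 67.0) and 136 (120 to 154). The lowest and the median cell of each group were at 0, and the highest cells were at 912, 56.6, 611 and 1932 CPM. The 3 WT GFPlo cells with Thy1 had 1 count each, while in KO GFPlo cells with Thy1 the median was 8 counts.

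The level of Thy1 in KO GFPlo was 103 times (34.8 to 502) that in WT GFPlo cells, and in WT GFPhi it was 69.1 times (23.4 to 337) that in WT GFPlo. On both dates WT GFPlo was low, at 0.919 and 1.71 CPM, while KO GFPlo had 128 and 141 CPM. WT GFPhi had 182 CPM on the first date and 46.1 on the second. In GFPhi cells Thy1 in KO was at 0.630 times (0.521 to 0.760) the WT level, with 0.336 and 1.23 times by date. Without pool 5 its log2 ratio was 0.30 instead of -0.66. In KO cells GFPhi was at 0.423 times (0.347 to 0.516) the level of GFPlo, with 0.476 and 0.400 times by date, and with cells of ls primers alone the log2 ratio was -0.20 instead of -1.24. Without leukocyte-marked cells it was -0.99, from 174 against 125 counts, and no longer called.

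Single cells carried much of the Thy1 signal. The highest cell held 174 of 318 counts in WT GFPhi (54.7%), 91 of 174 in KO GFPhi (52.3%) and 82 of 252 in KO GFPlo (32.5%). Without the cell of most member counts in each group, the log2 ratio of KO to WT GFPlo was 5.92 instead of 6.46, and that of WT GFPhi to GFPlo was 4.82 instead of 5.89. Each cell was also thinned to 10000 counts, which left out 6, 7, 4 and 4 cells of the groups. Thy1 was then found in 13 of 55 WT GFPhi cells, 7 of 44 KO GFPhi cells and 12 of 48 KO GFPlo cells. It was found in 0 of 32 WT GFPlo cells, which allows a share of up to 9.38% of cells with a count of it (3 of 32 cells; the exact binomial limit is 10.9%) and says nothing of cells that express it below detection. Of the 54 cells with Thy1, 47 had Epcam, 49 had Aire and 16 had Ptprc. In KO GFPlo 127 of the 252 counts stood in 6 leukocyte-marked cells, and without leukocyte-marked cells the log2 ratio to WT GFPlo was 5.83.

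**Figure D2:**
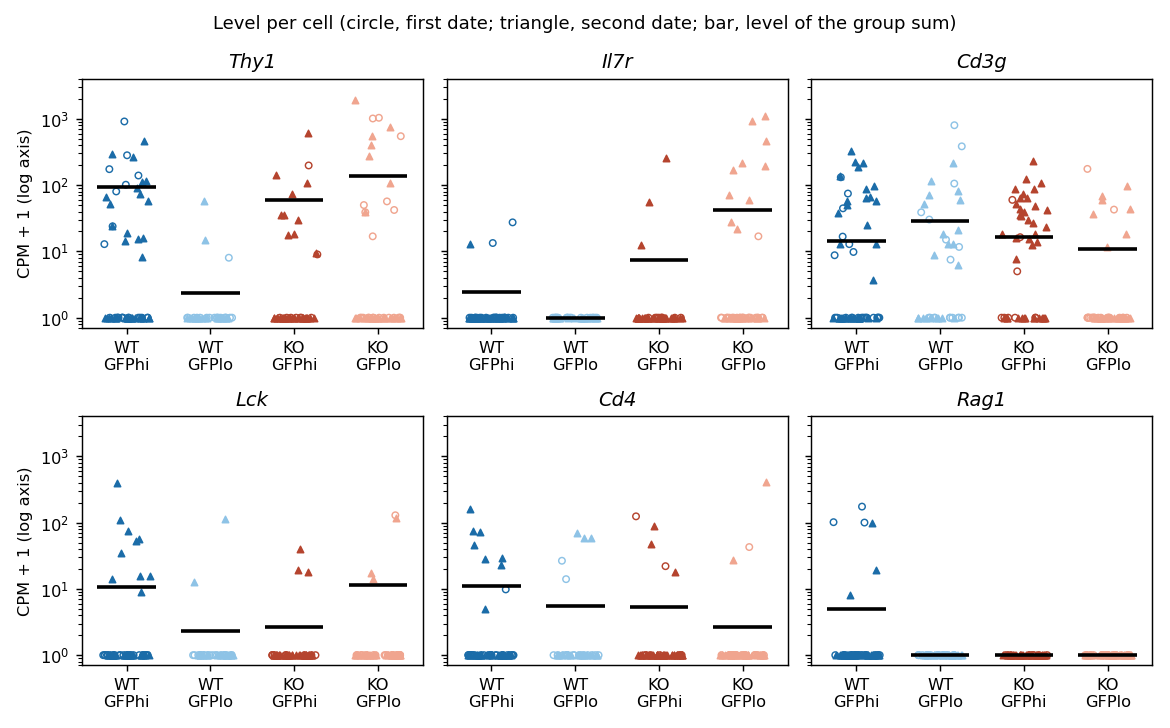
Each symbol is 1 cell of the group on the x axis, placed at the gene's CPM plus 1 on a log axis, with open circles for the first and filled triangles for the second sort date, and bars give the level of the group sum plus 1. Thy1 is spread over 3 groups and sparse in WT GFPlo cells, Il7r stands mostly in KO GFPlo cells of the second date, Cd3g is found in every group, and Rag1 stands in 6 WT GFPhi cells.

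Il7r, the interleukin 7 receptor chain (chr15:9505788-9530176, minus strand), was counted mainly in KO GFPlo cells of the second date. It had 5 counts in 3 WT GFPhi cells, 0 in WT GFPlo, 19 in 3 KO GFPhi cells and 75 in 11 KO GFPlo cells, or 1.44 CPM (0.468 to 3.36), 0, 6.31 (3.80 to 9.85) and 40.6 (31.9 to 50.9). A count of 0 in 39 WT GFPlo cells allows a share of up to 7.69% of cells with a count (3 of 39 cells), and the exact binomial limit drawn in the plot of detection is 9.03%. With WT GFPlo set at 3 counts over the group, KO GFPlo was at least 30.6-fold higher, and the exact lower limit of the ratio, which takes in the counting error of both groups, was 24.3. KO GFPhi was 4.38 times (1.58 to 15) WT GFPhi and 0.155 times (0.0887 to 0.260) KO GFPlo. By date Il7r had 1 and 74 counts in KO GFPlo, 0 and 19 in KO GFPhi, and 4 and 1 in WT GFPhi cells. On the first date GFPhi cells had 0 counts in 9 KO and 4 in 23 WT cells, a ratio of up to 2.07 that leaves the order unclear.

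The cells with Il7r were largely leukocyte-marked in 1 group. In KO GFPlo 72 of 75 counts stood in 9 leukocyte-marked cells, of which 2 had 13 counts each. Over the 11 KO GFPlo cells with Il7r, 7 had Ptprc and 5 had Epcam. Without leukocyte-marked cells the log2 ratio of KO GFPhi to GFPlo turned from -2.66 to 1.01, a ratio of 2.29 (0.675 to 12.1) whose interval holds 1. In GFPlo 3 counts in KO then stood against 0 in WT, too few for an order, so that difference was no longer called. The part of leukocyte-marked cells in the level of KO GFPlo was not tested beyond this. In KO GFPhi, where 3 cells held all 19 counts, 3 of 3 had Epcam and Aire, and 2 had Ptprc at 1 and 2 counts.

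Among the CD3 chains Cd3g was counted in 81 cells, Cd3d in 22 and Cd3e in 4. Cd3g had 47 counts in 24 cells of WT GFPhi, 62 in 20 of GFPlo, and in KO 47 in 28 cells of GFPhi and 18 in 9 of GFPlo. Its levels were 13.6 CPM (9.96 to 18), 27.4 (21 to 35.2), 15.6 (11.5 to 20.8) and 9.74 (5.78 to 15.4). The highest cells were at 329, 800, 227 and 175 CPM and the medians at 0, 5.34, 13.6 and 0 CPM, and the lowest cell of every group was at 0. Most cells with Cd3g held few counts, with a median of 1 or 2 per group.

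WT GFPlo cells had the highest Cd3g level, and it rested on the first date and partly on 1 cell. KO GFPlo had 0.355 times (0.198 to 0.608) the WT GFPlo level, with 0.224 times on the first date and 0.633 times (0.280 to 1.37) on the second. WT GFPhi had 0.494 times (0.331 to 0.734) the WT GFPlo level, with 0.195 times on the first date and 1.02 times (0.573 to 1.87) on the second. By date WT GFPlo cells were at 39.5 and 16.2 CPM, and 1 cell of the first date held 20 of its 62 counts. Without the cell of most counts of the 10 genes in each group, which is that cell in WT GFPlo and a cell with 82 Thy1 and 0 Cd3g counts in KO GFPlo, the log2 ratios were -0.89 and -0.49 instead of -1.46 and -1.01. In GFPhi cells KO was at 1.15 times (0.752 to 1.76) the WT level, and in KO cells GFPhi was at 1.6 times (0.913 to 2.93) the level of GFPlo, so neither interval leaves 1. After thinning, Cd3g was found in 12 of 55, 7 of 32, 6 of 44 and 6 of 48 cells.

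Cd3d had 6, 9, 9 and 4 counts in the 4 groups, and no interval of its ratios left 1. Cd3e had 3, 0, 2 and 1 counts, too few for an order. No cell had counts of Cd3d, Cd3e and Cd3g together. Cd3d and Cd3g shared 12 cells, which is 12 of the 22 cells with Cd3d and 12 of the 81 with Cd3g, and 4 of 4 cells with Cd3e also had Cd3g. In 34 cells Cd3g was the 1 gene of the 10 that was counted. Trac, Trbc1 and Trbc2, the constant segments of the T cell receptor chains that CD3 accompanies, were singled out after their values were seen. They had 7, 5 and 4 counts in all, in 11 cells, and 8 of the 91 cells with any CD3 chain had one of them. Of the cells with Cd3g, 70 had Epcam, 67 had Aire, 25 had Ptprc and 17 were leukocyte-marked.

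Lck, the kinase (chr4:129548344-129573641, minus strand), was counted in 19 cells, and 18 of them were sorted on the second date. It had 33, 3, 5 and 19 counts in 10, 2, 3 and 4 cells of the groups, or 9.52 CPM (6.55 to 13.4), 1.33 (0.274 to 3.88), 1.66 (0.539 to 3.87) and 10.3 (6.19 to 16.1). The 1 cell of the first date, in KO GFPlo, held 13 of that group's 19 counts, was leukocyte-marked and had 17 counts of Ptprc. KO GFPhi had 0.174 times (0.0532 to 0.450) the WT GFPhi level, and WT GFPhi had 7.17 times (2.25 to 36.5) the WT GFPlo level. KO GFPlo had 7.75 times (2.28 to 40.9) the WT GFPlo level, but without leukocyte-marked cells that log2 ratio was 0.18 instead of 2.77, from 2 against 3 counts. On the second date it was 2.01 times (0.428 to 12.4). In KO cells GFPhi had 0.161 times (0.0471 to 0.447) the level of GFPlo, and on the second date 0.451 times (0.109 to 1.77). Without leukocyte-marked cells the log2 ratio between the KO gates was -0.33 instead of -2.53, from 5 against 2 counts. All 19 cells with Lck had Epcam and 15 had Aire, 10 had Ptprc, and 9 had a CD3 chain.

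The coreceptor genes, all on chromosome 6, were sparse. Cd4 lies at chr6:124864692-124888221 on the minus strand, and Cd8b1 (chr6:71322788-71337494) and Cd8a (chr6:71373427-71379173) neighbour each other on the plus strand. Cd4 had 35, 10, 13 and 3 counts in 9, 5, 5 and 3 cells of the groups, or 10.1 CPM (7.03 to 14), 4.42 (2.12 to 8.13), 4.32 (2.30 to 7.38) and 1.62 (0.335 to 4.75). In GFPhi cells KO had 0.428 times (0.208 to 0.829) the WT level, and the dates went opposite ways, with 13.7 times (1.95 to 594) on the first and 0.0940 times (0.0185 to 0.299) on the second. WT GFPhi had 2.28 times (1.11 to 5.17) the WT GFPlo level, with 0.187 times (0.00394 to 1.67) and 3.46 times (1.35 to 11.3) by date. As a mean of per-cell CPM these log2 ratios were -0.22 instead of -1.19 and 0.31 instead of 1.14, and without leukocyte-marked cells -0.91 and 0.62, so neither stayed past 2-fold. Of the 35 WT GFPhi counts 34 came from the second date, and 2 cells had 11 and 10 of them.

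Cd8a had 4, 0, 2 and 12 counts in the 4 groups, and 8 of the 12 stood in 1 KO GFPlo cell. With WT GFPlo at 0, KO GFPlo was at least 4.90-fold higher on the floor of 3 counts, with an exact lower limit of 3.40. Without pool 8, which holds the cell with 8 counts, 4 counts stood against 0, and without leukocyte-marked cells 3 stood against 0, too few for an order in both cases. KO GFPhi had 0.102 times (0.0111 to 0.459) the KO GFPlo level. Without leukocyte-marked cells that was 0.241 times (0.0202 to 2.11), from 2 against 3 counts, too few for an order. By date the 12 counts were all of the second. Cd8b1, whose product pairs with that of Cd8a on CD8-bearing thymocytes, had 3 counts in 1 WT GFPlo cell and 2 in 1 KO GFPlo cell. A single cell had both Cd8a and Cd8b1, and a single cell had both Cd4 and Cd8a, the pair that marks the main stage of immature thymocytes.

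Rag1, the recombinase gene, was counted in WT GFPhi cells and in no other group. It had 14 counts in 6 of 61 WT GFPhi cells, or 4.04 CPM (2.21 to 6.77), with 3 cells and 7 counts on each date. The 6 cells had 5, 4, 2, 1, 1 and 1 counts. A count of 0 allowed up to 1.33 CPM in WT GFPlo and 0.996 and 1.62 CPM in the KO gates, and shares of up to 7.69, 6.25 and 5.77% of their cells with a count of it. The exact binomial limits of these shares, drawn in the plot of detection, are 9.03, 7.40 and 6.85%. Against these floors of 3 counts over a group, WT GFPhi was at least 4.05-fold higher than KO GFPhi and at least 3.04-fold higher than WT GFPlo. The exact lower limits of these ratios, which take in the counting error of the 14 counts too, were 2.88 and 2.16. After thinning, 1 of 55 WT GFPhi cells had Rag1, so the difference was not detectable at that depth.

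All 6 cells with Rag1 also had Thy1, at 1 to 12 counts, while 24 of the 61 WT GFPhi cells had Thy1. Of the 6, 4 had Epcam, 5 had Aire, 1 had Ptprc, and 1 was leukocyte-marked. Cd3d was found in 2 of them, Cd3g in 1 and Lck in 0. Rag2, the other recombinase subunit, was named after its values were seen. It had 140 counts in 49 cells of all 4 groups, and 3 cells had both Rag1 and Rag2. Rag1 lies at chr2:101638282-101649501, and on the same strand its span overlaps the gene B230118H07Rik (chr2:101560781-101649532), which had 314 counts in 44 cells, 2 of them with Rag1. How reads in the overlap were assigned is not given in the sources used here.

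Thymocyte genes were counted together in some wells. Of 200 cells 68 had none of the 10, 63 had 1, 43 had 2, 20 had 3, 4 had 4 and 2 had 5. At least 3 were found in 12 GFPhi (19.7%, 10.6 to 31.8%) and 2 GFPlo cells (5.13%, 0.627 to 17.3%) of WT, and in 6 GFPhi (12.5%, 4.73 to 25.2%) and 6 GFPlo cells (11.5%, 4.35 to 23.4%) of KO. By date there were 4 such wells of 72 and 22 of 128. The number of genes moved with depth, with a Spearman coefficient of 0.41 to the total count over 200 cells, given as a description. After thinning to 10000 counts 2, 1, 0 and 1 such cells were left of 55, 32, 44 and 48.

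The 26 wells had a median total of 63659.5 counts, and 22 had Epcam, 22 had Aire and 10 had Ptprc. They had counts of 4 or more of the 20 epithelial list genes, with a median of 15. Leukocyte-marked wells numbered 7, and 1 well had a T cell receptor constant segment. Most of the leukocyte-marked wells were KO GFPlo, as were most of the wells without Epcam. Most KO GFPlo wells were leukocyte-marked, while most wells of the other groups were not. Thy1 was in 22 of the 26 and Cd3g in 18, and none had the 3 CD3 chains. In the plot of shared cells, Thy1 and Cd3g share 23 cells, which is 23 of 54 and 23 of 81. Lck and Cd4 share 5 cells, 5 of 19 and 5 of 22, and 4 of these 5 are WT GFPhi.

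**Figure D3:**
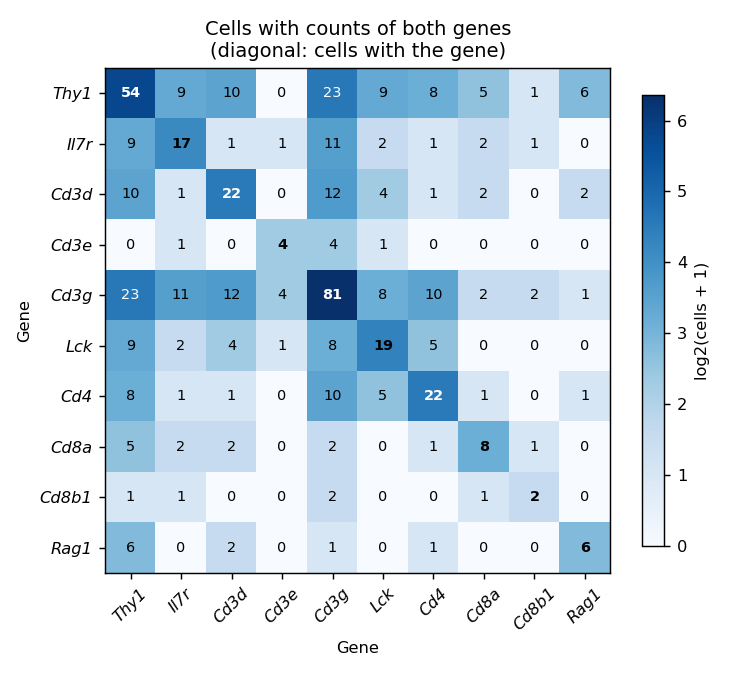
Each square gives the number of cells, of 200, with counts of both genes named on the axes, and the diagonal gives the cells with the gene itself. Shading is log2 of the number plus 1. Thy1 and Cd3g share 23 cells, the 6 cells with Rag1 all have Thy1, and Cd3e shares no cell with Thy1 or Cd3d.

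The CD4 stain differed more between the sort dates than between the groups. Its median was 2246, 1960, 2279.5 and 1901.5 in the 4 groups, in arbitrary units of the cytometer, and the lowest and highest cells were -293 and 33497, -234 and 35566, -2233 and 49978, and -1997 and 111914. All groups held cells from -234 to 33497, a range that took in 188 of 200 cells. Above it lay 5 cells, 3 of them of KO GFPlo. The median was 7833 on the first date and 1409.5 on the second. By date the medians were 8473 and 1450 for GFPhi and 10919 and 1311 for GFPlo in WT, and 7868 and 1999 for GFPhi and 6401.5 and 1329 for GFPlo in KO. The median of every group was thus higher on the first date, and intensities were read within a date. The labels do not say what the stain was used for, and CD4 is not among the gate's stated markers.

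The stain and the Cd4 transcript were compared cell by cell. Over 200 cells that share sort dates and library pools, the Spearman coefficient of the stain with Cd4 CPM was 0.036, with 0.20 over 72 cells of the first date and 0.058 over 128 of the second. With the summed level of the 10 genes it was -0.086. Coefficients this weak in sparse counts are no finding. Of the 6 cells with Cd4 on the first date 4 lay above that date's median stain, and of the 16 on the second date 10 did. Among the 10 cells of highest stain on each date, 1 on the first and 1 on the second had Cd4. The cell of highest stain, at 111914, was a KO GFPlo cell with 1 count of Cd4, 0 of Epcam, 1 of Ptprc and 0 of the other 9 genes. The cell with most Cd4, a WT GFPhi cell with 11 counts, had a stain of 2207.

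**Figure D4:**
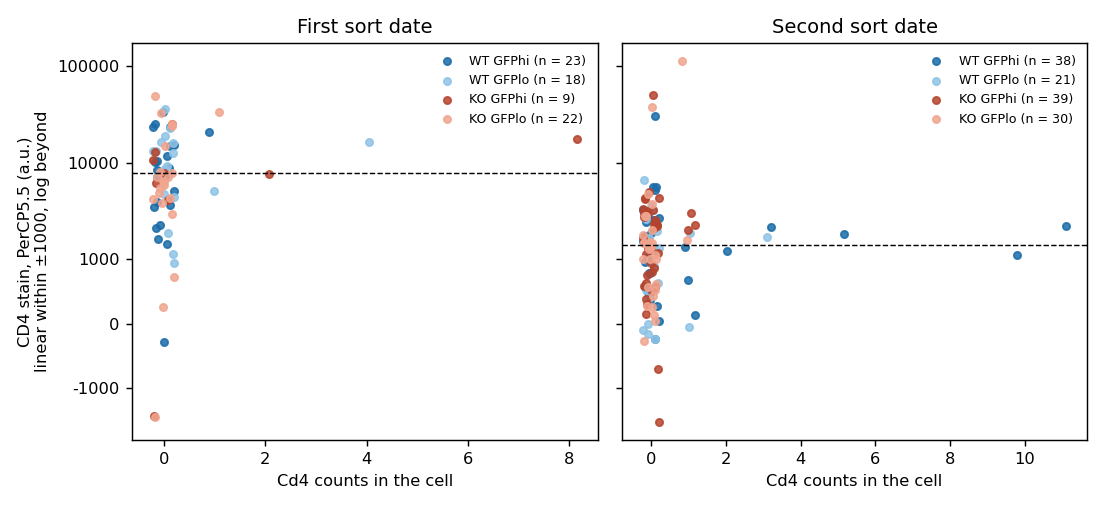
Each point is 1 cell, with its Cd4 counts on the x axis (spread sideways for visibility) and its CD4 stain in arbitrary units on the y axis, linear within 1000 units of 0 and logarithmic beyond, by sort date and group. The dashed line is the median of the date, 7833 and 1409.5. Cells with Cd4 counts lie on both sides of it.

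The sort dates were compared over all groups. The summed level of the second date was 0.885 times (0.787 to 0.995) that of the first, and within groups it was 0.483 and 0.619 times in the WT gates and 1.18 and 1.49 times in the KO gates, GFPhi first. Il7r was higher on the second date, at 10.5 times (4.33 to 33), the 1 of 8 genes called so, against 24% of 16640 genes. None was called lower, against 21%. Cells with any of the genes made up 38 of 72 on the first and 94 of 128 on the second date, so more cells carried them at a similar summed level. Leukocyte-marked cells numbered 7 and 34 by date and median totals were 25144 and 34562, and their part in this was not tested.

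Other genes of the T lineage were read from a list of 40, of which 39 are in the table. Here any gene past 2-fold counts. In GFPhi cells 7 of 26 genes with at least 10 counts were higher in KO and 5 lower, against 20% and 29.1% of all genes, with a median log2 ratio of 0.21 against -0.13 over all genes. In GFPlo cells 9 of 24 were higher in KO and 5 lower, against 23.6% and 27.3%, with a median of 0.49 against -0.05. Between gates 7 of 26 were higher and 6 lower in WT GFPhi, against 27.6% and 24.2%, with a median of -0.45 against 0.05. In KO GFPhi 8 were higher and 7 lower, against 24.3% and 26.1%, with a median of 0.30 against -0.03. The list thus held genes of both directions in each comparison.

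The genes of this list with most counts had differing orders over the groups. Cd69, an early activation marker of lymphocytes, had 135, 55.3, 3.32 and 79.0 CPM in the 4 groups, and 716 of its 750 counts were of the second date. Ccr7, the receptor that guides maturing thymocytes to the medulla, had 39.2, 82.7, 13.9 and 344 CPM. Zbtb7b, the regulator of the CD4 lineage, had 14.7, 23, 48.1 and 2.71 CPM, and Runx3, the regulator of the CD8 lineage, had 67.2, 15.5, 111 and 69.3 CPM. Tcf7 and Tox, transcription factors of early T cells, were counted in 131 and 178 of 200 cells. Cd247, which encodes the zeta chain of the receptor complex, had 30.9, 8.85, 15.9 and 13 CPM. Single cells carried much of these levels, such as 67 of the 107 Cd247 counts of WT GFPhi, 46 of the 52 Zbtb7b counts of WT GFPlo and 35 of the 42 Ccr7 counts of KO GFPhi. Without the highest cell of each group, a choice made after seeing the data, Cd247 had 12.2, 7.87, 13.3 and 9.08 CPM, so that WT GFPhi was no longer highest. Zbtb7b then had 7.79, 2.89, 35.3 and 2.19 CPM, while Cd69 and Ccr7 had the same order of groups as before. For Runx3 WT GFPhi and KO GFPlo, at 59.2 and 57.2 CPM, changed places.

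Lists of other cell types give the setting of these counts. The list of leukocyte genes had counts of 13 of 13 genes in each group, at 2753, 2257, 2526 and 4088 CPM, and single cells ran from 346 to 9111, 111 to 7959, 173 to 6678 and 279 to 10171 CPM. Ptprc itself was at 64.0, 49.1, 4.32 and 101 CPM. The B lineage list was at 9048, 15400, 639 and 2079 CPM with 13 to 15 of 15 genes counted. Its single cells ran from 0 to 68511, 0 to 151379, 0 to 2559 and 69.8 to 12607 CPM. Their medians were 784, 345, 340 and 852 CPM, in another order than the levels. In WT GFPlo Ighm had 19081, Igj 9116 and Igkc 4375 of the 34815 counts of the list. The innate lymphoid list was at 383, 260, 342 and 198 CPM, with 7 to 10 of 15 genes counted in a group. Gzma, Klrd1 and Il22 were at 0 in every group and Nkg7 at 1 count, while Rora had 1008 counts in 141 cells, Tbx21 905 in 68, Il13 660 in 67 and Areg 388 in 9. The dendritic and macrophage list was at 501, 495, 341 and 1260 CPM with 14 or 15 of 15 genes counted, and single cells ran from 0 to 2030, 5034, 1549 and 15158 CPM. Of its genes Tyrobp, a signalling adaptor of myeloid cells, had 250 of 312 counts in KO GFPlo and Batf3, a regulator of dendritic cells, 234 of 295. Other genes of the list stood elsewhere. Itgam had 125 of 150 and Emr1 103 of 155 counts in WT GFPhi, and Mrc1 had 0 of 187 in KO GFPlo. Fcer1g was at 103 CPM in KO GFPhi and 102 in KO GFPlo. The plasmacytoid dendritic list was at 413, 498, 249 and 547 CPM with 6 or 7 of 8 genes counted and Irf8 at 0 in every group. Klk1 gave 453 of its 1432 counts in WT GFPhi and 253 of 1125 in WT GFPlo, but 0 and 1 in the KO gates. Most of the other counts were of Tcf4, Ly6d and Bst2, counted in 120, 80 and 84 cells, while Siglech had 29 counts. The fibroblast and endothelial list, of interest since Thy1 also marks stromal cells, was at 416, 1127, 887 and 584 CPM with 11 to 13 of 13 genes counted, and Rgs5, a gene of pericytes, gave most of its counts. Of its fibroblast genes Dcn had 141, 131, 218 and 92 counts in the 4 groups, and Col1a1, a collagen, had 157, 0, 3 and 41. The leukocyte, dendritic and plasmacytoid levels were each highest in KO GFPlo cells, as was the summed level of the 10 genes. For the plasmacytoid list the intervals of KO and WT GFPlo overlapped (514 to 582 and 469 to 528). The median cell of the dendritic list was at 397, 348, 349 and 339 CPM, lowest in KO GFPlo. The B lineage and fibroblast levels were highest in WT GFPlo, where that sum was lowest, and the innate lymphoid level was lowest in KO GFPlo. In WT GFPlo Rgs5 gave 2189 of the 2548 fibroblast list counts, so that level rests largely on Rgs5. The lists thus had differing orders over the groups. Beyond the values without leukocyte-marked cells the part of these cell types in the summed level was not tested.

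Genes whose level per cell was most like the summed level of the 10 were found by Spearman coefficient over 200 cells among 10265 genes counted in at least 20 cells. They were Stard9 (0.33), Relb (0.32), Tex11 (0.29), Itgb3 (0.28), Cetn3 (0.28), Susd2 (0.27), Cacnb3 (0.27) and Nfkb2 (0.27). By date Relb had 0.35 and 0.30, and Cetn3 had 0.50 and 0.12. The cells share pools and sort dates, and coefficients of this size in sparse counts are no finding.

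Several of the differences named above rest on few wells. Leaving out 1 of the 12 pools at a time, the log2 ratio of Lck between KO and WT GFPlo ran from 1.25 (without pool 2) to 4.01 (without pool 10). For Cd4 between KO and WT GFPhi it ran from -2.48 (without pool 1) to -0.15 (without pool 10), and between WT GFPhi and GFPlo from 0.35 (without pool 10) to 1.70 (without pool 4). For Thy1 between KO GFPhi and GFPlo it ran from -2.37 (without pool 11) to -0.72 (without pool 10). For Thy1 between KO and WT GFPlo it ran from 6.25 to 6.76. For Rag1 the WT GFPhi counts ran from 9 (without pool 4) to 14 against 0 in WT GFPlo, and without pool 4 the exact lower limit of that ratio was 1.18. For the summed level between WT GFPhi and GFPlo it ran from 1.16 (without pool 5) to 2.13, and between KO GFPhi and GFPlo from -1.92 (without pool 11) to -0.96.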

How the data were processed

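The authors deposited a table of raw counts, with genes in rows and cells in columns. Per the submitters' processing notes, TopHat, TopHat2, Picard 1.79, SAMtools 0.1.19, HTSeq and the genome mm10 were used, with no role or order given. Whether molecular identifiers were collapsed is not given in the sources used here, so counts were treated as tags. In 40 cells the count total was above the number of identifiers given in the metadata. It was above the number of unique reads in 0 cells. The tags of the 40 cells thus cannot all be separate identifiers as counted there. The intervals treat tags as independent, so they are too narrow where tags are copies of the same molecule. How many tags are such copies was not tested. Per the file headers, the metadata give the CD4 stain as flow cytometer intensity in arbitrary units, with a sort date per well. All 200 cells were used, with no filter and no step for doublets, and 0 columns were left without a sample.

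Each GEO sample is 1 cell, and the labels name no animal, so a group counted as 1 sample and no p-value is given. A level is the summed count of a group's cells per 1000000 counts of that group. Levels carry exact Poisson, ratios exact conditional binomial (Clopper-Pearson) and shares exact binomial 95% intervals. For log2 ratios 0.5 was added to each summed count. A group at 0 was set at 3 counts, and a share at 0 at 3 cells. A difference was called with a log2 ratio of 1 or more in size, an interval on one side of 1, and at least 10 counts. The ratio, its interval and the call were tried on simulated Poisson sums with known fold changes. Those sums held no variation among cells, so the trial covers counting error only. All 10 genes are described in every group. From each list the 10 genes with most counts could be named, and the 8 genes most like the summed level were taken by coefficient. The genes and lists were chosen with earlier results of these data known.

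Alternatives were TMM factors (edgeR 4.0.16, R 4.3.3), median-of-ratios size factors, the mean of per-cell levels, primer kinds, dates, pools, depth, and cells or genes left out. The rest ran in Python 3.11.15 with scipy 1.17.1, pandas 2.3.3, matplotlib 3.10.9 and numpy 2.4.6. Promoter windows are from RefSeq (GRCm38.p6), and gene positions from GENCODE release M21 on the same build.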

Additional observations from a re-analysis of the deposited data

Results flagged for a closer look

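Some differences had opposite directions in the 2 settings in which they were made, each past 2-fold, and the difference between the settings was not tested. Lck had a log2 ratio of KO to WT of -2.40 in GFPhi and 2.77 in GFPlo cells. Between GFPhi and GFPlo it had 2.64 in WT and -2.53 in KO cells. Thy1 had a log2 ratio of GFPhi to GFPlo of 5.89 in WT and -1.24 in KO cells. The summed level of the 10 genes had 1.75 in WT and -1.21 in KO cells. The 4 groups each serve in 2 of these ratios. Without leukocyte-marked cells Lck had 0.18 between KO and WT in GFPlo, from 2 against 3 counts, and -0.33 between the gates in KO, from 5 against 2 counts. Thy1 then had -0.99 between the gates in KO, from 174 against 125 counts, and 5.86 in WT. Both Thy1 and the summed level were thus within 2-fold between the KO gates in that setting.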

How the results depend on the processing

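Log2 ratios of the summed level are given in the order KO to WT in GFPhi (-0.57), KO to WT in GFPlo (2.39), GFPhi to GFPlo in WT (1.75), GFPhi to GFPlo in KO (-1.21) and second to first date (-0.18). With 1 pool left out at a time they ran from -1.34 to -0.024, 2.22 to 2.78, 1.16 to 2.13, -1.92 to -0.96, and -0.50 to 0.56. TMM and median-of-ratios scaling kept each within its counting interval, with a shift of all genes of at most 0.12, and turned no called gene. Values outside the interval were as follows, and the cause was not tested. KO to WT in GFPhi was -1.11 with umi primers, -0.87 without leukocyte-marked cells, and -1.35 and -0.069 by date. KO to WT in GFPlo was 1.77 with the mean of per-cell CPM, 1.80 with ls and 3.54 with umi primers, 1.55 without leukocyte-marked cells, 0.91 without Thy1, and 1.68 and 2.94 by date. GFPhi to GFPlo in WT was 0.83 with the mean of per-cell CPM, 0.60 with umi primers and 0.14 without Thy1. GFPhi to GFPlo in KO was -1.67 with the mean of per-cell CPM, -0.38 with ls and -4.04 with umi primers, -0.62 without leukocyte-marked cells, and -1.47 without the cell of most counts in each group. Second to first date was 0.37 with the mean of per-cell CPM, -0.36 with ls and 1.09 with umi primers, -0.35 without leukocyte-marked cells, 0.27 without the cell of most counts, and 0.74 without Thy1.

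Of the 19 ratios of single genes called different, 10 turned direction in at least 1 alternative, in 11 of 430 in all. The alternatives include, for each ratio, the 12 runs that leave out 1 pool. The counts behind each turn are given, since several are too few for an order, and a log2 ratio against 0 rests on the added 0.5. With umi primers alone, 47 cells, Lck turned to 0.12 (2 against 2 counts, KO to WT in GFPhi), -2.43 (0 against 3, KO to WT in GFPlo), -0.97 (2 against 3, GFPhi to GFPlo in WT) and 1.59 (2 against 0, in KO), and Cd4 to -3.65 (0 against 4, GFPhi to GFPlo in WT). On the first date alone Il7r turned to -2.72 (0 against 4) and Cd4 to 3.26 (10 against 1) for KO to WT in GFPhi, Cd4 to -1.97 (1 against 5, GFPhi to GFPlo in WT) and Cd8a to 1.26 (1 against 0, in KO). On the second date alone Cd3g turned to 0.0084 (38 against 19, GFPhi to GFPlo in WT). Without leukocyte-marked cells Il7r turned to 1.01 (19 against 3, GFPhi to GFPlo in KO). Of the 28 ratios of single genes not called, 20 turned in at least 1 alternative, in 49 of 591 in all. Among these Thy1 of KO to WT in GFPhi ran from -1.89 to 0.30 with 1 pool left out, Cd8a in the same comparison from -1.37 to 0.76, and Thy1 of second to first date from -1.02 to 0.46.

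Cells with at least 3 genes numbered 12, 2, 6 and 6 in the groups, WT first and GFPhi before GFPlo. They numbered 4, 0, 0 and 3 with at least 2 counts per gene, 26, 12, 19 and 12 for at least 2 genes, 2, 1, 0 and 1 thinned to 10000 counts, 0, 1, 0 and 1 thinned to 5000, 4, 0, 0 and 0 on the first date, and 1 in KO GFPlo without leukocyte-marked cells. The median CD4 stain of WT GFPlo was 10919 on the first date, and the coefficient of stain and Cd4 was 0.20 on that date. With no minimum of counts the T lineage list had 11 genes higher in KO in GFPhi, 15 in GFPlo, and 11 higher in WT GFPhi than GFPlo. No paired analysis was possible because replicate numbers only name cells and no result comes from a test. The groups were all sorted on both dates, and the ratios within each date are given instead. Depth limits the sparse genes, since most cells have 0 counts of each.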

Other observations

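By library pool, the summed level of the 10 genes ran from 18.3 CPM in pool 3, with 8 cells, to 275 CPM in pool 5, with 18 cells. Thy1 was found in 0 of 9 cells of pool 2 and in 12 of 28 cells of pool 10. Cd3g was found in 0 of 9 cells of pool 2 and in 11 of 18 cells of pool 8. The 153 cells made with primers of the kind called ls had a summed level of 113 CPM, and the 47 cells made with the kind called umi had 122 CPM. Of the 22 cells with Cd4, 20 were made with ls primers, and of the 6 cells with Rag1, 3 were.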
